A study of Saccharomyces cerevisiae with 6 samples.

Results

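Ribonucleotide reductase is the enzyme that turns ribonucleotides into deoxyribonucleotides (dNTPs), the building blocks of DNA, and its genes are classical targets of the DNA damage response in budding yeast. Of the 6377 ORFs on the arrays, 7 were followed here, chosen by name. They were the large subunits RNR1 and RNR3, the small subunits RNR2 and RNR4, the inhibitor SML1, the checkpoint kinase gene DUN1 and the recombination gene RAD54. Each had 1 probe and a value on all 6 arrays.

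The arrays compared mRNA of Saccharomyces cerevisiae cells that had grown with and without doxycycline (dox). Both samples were of 1 strain, TETp-HSC82 hsp82Δ arg4Δ lys5Δ car2Δ::URA3, in the R1158 background. In this strain HSC82, the only Hsp90 gene left, stands under a promoter that dox represses. All cells thus lacked HSP82, ARG4, LYS5 and CAR2, and they were kept in log phase in synthetic complete medium with raised amino acid supplements. Treated cells received 5 μg/ml dox for 11 h. In culture 1, cells with normal arginine and lysine were treated and those with the 13C6 forms were not, and in culture 2 the labels were exchanged. RNA of each culture was isolated 3 times for 3 technical arrays, so that the number of independent cultures is 2. The dyes were never exchanged between treated and untreated RNA, so dye and treatment cannot be told apart. No array of dox-treated cells with the normal HSC82 promoter was analysed here, so dox and the loss of Hsc82 cannot be told apart either.

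Values are log2 ratios of treated over untreated cells, so that 0 means equal mRNA and 0.585 a 1.5-fold higher level. They compare a gene with itself and say nothing of how abundant 1 gene's mRNA is beside another's. The RNA came from whole cultures, in which a higher level in every cell and a high level in a share of the cells cannot be told apart. HSC82 fell on every array, with log2 ratios from −6.43 to −5.48 (mean −5.99, limma adjusted p = 0.000658). The probe of the deleted HSP82, a close paralog, read −6.64 to −5.91, whereas ARG4 had 1 value, LYS5 had 0, and CAR2 had 5 with a mean of −0.27. A single array gave 6180 to 6353 values.

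Yeast ribonucleotide reductase pairs a large subunit, which holds the catalytic site, with a small subunit that carries the iron cofactor. Rnr1 is the usual large subunit and Rnr3 a paralog that cells make mainly under DNA damage or replication stress. When forks stall or DNA breaks, the kinases Mec1, Rad53 and Dun1 act in sequence. Dun1 then marks the inhibitor Sml1 for destruction and lifts the repression that Crt1 (gene RFX1), together with Tup1 and Cyc8, keeps on RNR2, RNR3, RNR4 and HUG1. Rad54, a DNA translocase of recombinational repair, stands outside the enzyme, and its gene is another one known to be induced by DNA damage.

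RNR3 rose after dox in both cultures, and it was the single gene of the 7 to pass the criterion of the study's methods, more than 1.5-fold with p below 0.05. Among all 6290 genes tested, 10.5% passed it, 5.74% higher and 4.74% lower, so 1 of 7 is near the share of the whole genome. The other subunit genes lay close to 0 or below it. SML1 was at 68.0% of its untreated level and DUN1 at 1.48 times it, each with the same sign on 6 of 6 arrays but just short of the fold threshold.

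**Figure D1:**
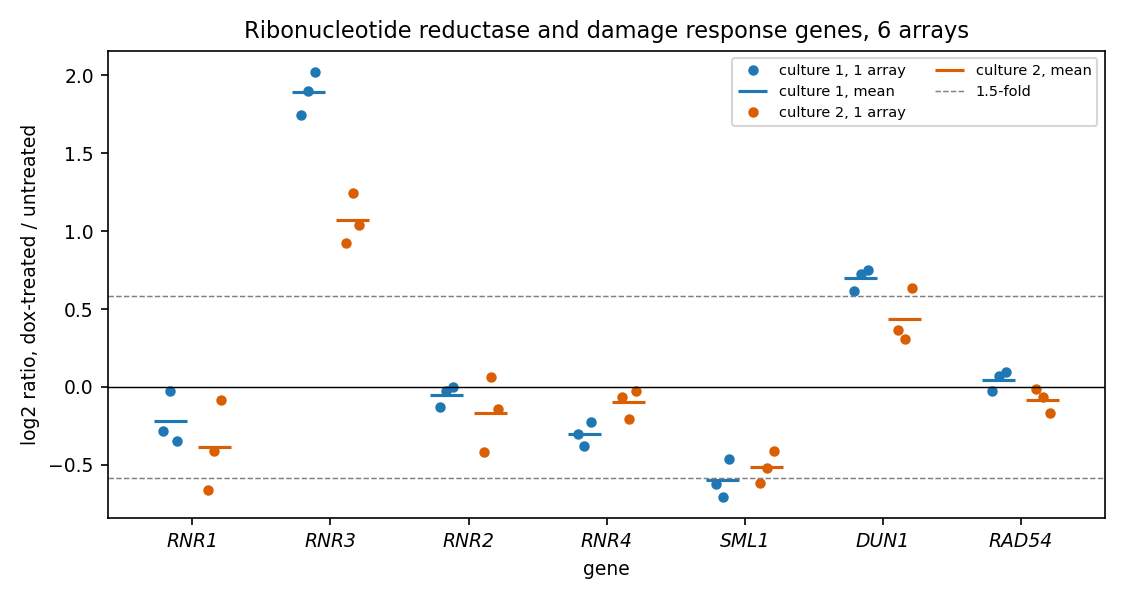
Log2 ratio of dox-treated over untreated cells (vertical axis) for each of the 7 genes (horizontal axis). Points are single arrays, bars are the means of the 3 technical arrays of a culture, and dashed lines mark 1.5-fold. All 6 RNR3 points lie above the upper dashed line, between 0.92 and 2.02, with culture 1 above culture 2, whereas all 6 RAD54 points lie between −0.16 and 0.09.

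The genes of the large subunits stood far apart. RNR3 (YIL066C) read 1.75, 1.90 and 2.02 on the arrays of culture 1 and 0.92, 1.24 and 1.04 on those of culture 2. Every array was well above 0, and the cultures did not overlap, culture 1 being higher throughout. The culture means were 1.89 (SD 0.14 over 3 technical arrays) and 1.07 (SD 0.16), that is 3.71-fold and 2.10-fold. Over both cultures RNR3 rose by a log2 ratio of 1.48 ± 0.21 (SE from limma, n = 2 cultures, 95% interval 0.94 to 2.02). That is 2.79-fold (limma adjusted p = 0.0343). Here and below, limma draws the spread of each gene between cultures towards that of all genes. Its SEs and intervals can thus be narrower or wider than the 2 culture means alone would give. For RNR3 and HUG1, whose culture means lay far apart, the limma SE was the smaller one. With the adjusted p in place of the unadjusted one, 5.36% of all genes tested passed, and RNR3 was again the single gene of the 7. It ranked 47 among the rises of all genes tested. The adjusted p went above 0.05 when each array was centred on its median (0.0967) or when array 1 or 3 of culture 1 or array 2 of culture 2 was left out (0.0569 to 0.0638).

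RNR1 (YER070W), the large subunit of unstressed cells, read −0.28, −0.03 and −0.35 in culture 1 and −0.66, −0.41 and −0.08 in culture 2. It was thus below 0 on all arrays, and the cultures overlapped. Its mean of −0.30 ± 0.12 (SE, n = 2), 81.1% of the untreated level, did not pass the test (limma adjusted p = 0.174), with a 95% interval of −0.61 to 0.0036. The unadjusted limma p of RNR1 was 0.0519. RNR3 and RNR1 are similar in sequence, and whether a probe of either also binds mRNA of the other was not tested. Their ratios stood apart on every array, RNR3 minus RNR1 being 1.13 to 2.37 on the log2 scale.

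The small subunit genes lay near 0. RNR2 (YJL026W), which carries the iron cofactor, read −0.13, −0.03 and 0.00 in culture 1 and −0.42, 0.07 and −0.14 in culture 2. These values lie around or just under 0, and the first array of culture 2 was the lowest. The mean was −0.11 ± 0.12 (SE, n = 2; 95% interval −0.41 to 0.19; limma adjusted p = 0.578), or 92.7% of the untreated level. RNR4 (YGR180C), whose product helps Rnr2 to fold and to take up iron, read −0.30, −0.38 and −0.23 in culture 1 and −0.07, −0.21 and −0.03 in culture 2. All 6 values were below 0, and here culture 1 was the lower one without overlap. With a mean of −0.20 ± 0.12 (95% interval −0.51 to 0.11; limma adjusted p = 0.333), RNR4 was at 87.0% of the untreated level. The intervals of RNR2, RNR4 and RAD54 lie wholly within 1.5-fold in either direction.

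For the genes of the small subunit partners, RNR2 minus RNR4 was −0.35 to 0.35 over the arrays, with means of 0.25 in culture 1 and −0.07 in culture 2. Both genes lay near 0, as most genes did, so a small difference does not set this pair apart. RNR3, by contrast, stood above the mean of RNR1, RNR2 and RNR4 by 1.13 to 2.21 on each array, by 2.08 on average in culture 1 and by 1.29 in culture 2. RNR2 and RNR4 share the repressor Crt1 with RNR3, as background, and both had a mean below 0 in either culture. These differences are descriptions, since an exact permutation test over 2 cultures cannot give p below 0.5.

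**Figure D2:**
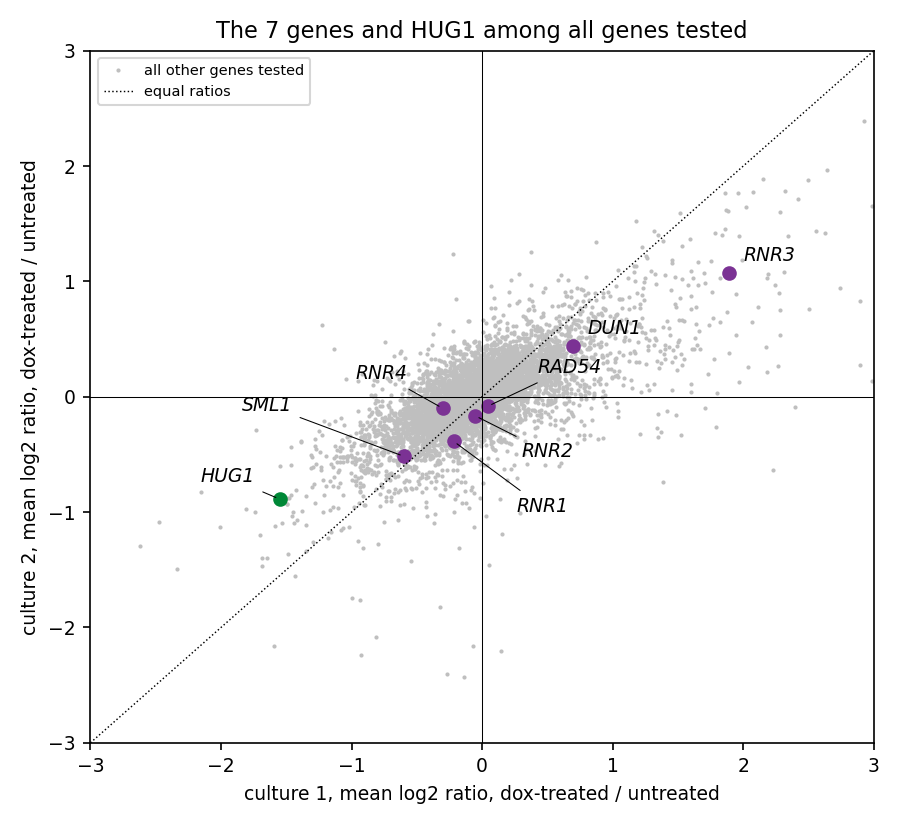
Mean log2 ratio in culture 1 (horizontal axis) against culture 2 (vertical axis) for all genes tested in grey, the 7 genes in purple and HUG1 in green. The dotted line marks equal ratios, and 18 genes lie outside the axes. RNR3, at 1.89 and 1.07, lies to the right of the dotted line and far from RNR1, RNR2 and RNR4, which lie with the bulk of the genes.

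Of the inhibitors of the enzyme, SML1 (YML058W), whose product binds the large subunit, read −0.63, −0.70 and −0.46 in culture 1 and −0.61, −0.52 and −0.41 in culture 2. The values were below 0 on 6 of 6 arrays and the cultures overlapped. The mean was −0.56 ± 0.12 (SE, n = 2; 95% interval −0.85 to −0.26; limma adjusted p = 0.0587), which fell short of 1.5-fold. HUG1 (YML058W-A), which codes for a small protein that binds the small subunit Rnr2, is the neighbour of SML1 on the same strand. It was in a list of regulators and read −1.61, −1.71 and −1.33 in culture 1 and −0.95, −0.88 and −0.84 in culture 2. All values were low, and culture 1 was lower without overlap.

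HUG1 fell to 43.0% of its untreated level, a mean log2 ratio of −1.22 ± 0.18 (SE, n = 2; limma adjusted p = 0.0359), and ranked 37 among the falls of all genes tested. Centring each array raised the adjusted p above 0.05 (0.0935), and so did leaving out array 1 or 3 of culture 1 or array 1 or 2 of culture 2 (0.0559 to 0.0649). HUG1 is known as a target of Crt1 and is induced by DNA damage, as RNR3 is, and here the pair went in opposite directions. RNR3 minus HUG1 was 3.44 in culture 1 and 1.96 in culture 2, and at least 1.88 on each array. Of the neighbouring genes, HUG1 lay below SML1 by 0.34 to 1.00 on each array. Whether either probe also binds the neighbour's transcript was not tested.

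DIF1, an inhibitor that carries the small subunits into the nucleus, had means of −0.51 and −0.26 in cultures 1 and 2, and was below 0 on 6 of 6 arrays (mean −0.39, limma adjusted p = 0.128). WTM1, whose product holds the small subunits in the nucleus, had means of −0.60 and −0.51 and was also below 0 on 6 of 6 arrays (mean −0.55, limma adjusted p = 0.059). Neither passed 1.5-fold. WTM2, the paralog of WTM1, had a mean of −0.30.

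The transcription regulators of the subunit genes did not pass the criterion. RFX1, the gene of the repressor Crt1, had a mean of −0.17 in culture 1 and 0.18 in culture 2, so that its sign differed between the cultures (mean 0.00). Of the corepressor pair, CYC8 had means of −0.54 and −0.17 and TUP1 of −0.12 in both. IXR1, an HMG-box protein needed for normal RNR1 expression, had a mean of 0.04. MBP1 and SWI6, which form the factor MBF that drives RNR1 at the start of S phase, had means of 0.11 and 0.13. Of the 10 regulators other than the 7 genes, 6 were below 0 in both cultures and 0 were above 0 in both. HUG1 was the only one called, beside 10.5% of all genes tested. The list's median was −0.21, beside −0.01 for all genes tested.

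**Figure D3:**
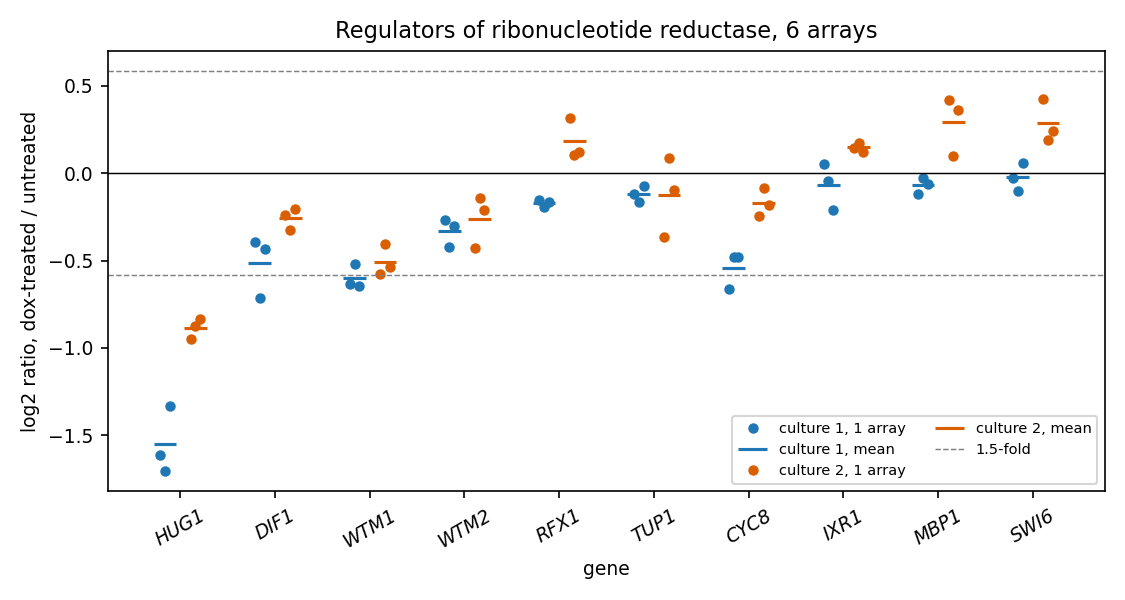
Log2 ratio of dox-treated over untreated cells (vertical axis) for 10 regulators of ribonucleotide reductase (horizontal axis), drawn as single arrays with the mean of each culture and dashed lines at 1.5-fold. All 6 HUG1 points lie between −1.71 and −0.84, below the lower dashed line. DIF1, WTM1, WTM2 and CYC8 lie below 0 on all arrays, and RFX1, MBP1 and SWI6 straddle it.

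DUN1 (YDL101C), the kinase that acts on Sml1 and on Crt1, read 0.62, 0.72 and 0.75 in culture 1 and 0.36, 0.31 and 0.63 in culture 2. All arrays were above 0, and 1 array of culture 2 reached the range of culture 1. The mean was 0.57 ± 0.13 (SE, n = 2; 95% interval 0.24 to 0.89; limma adjusted p = 0.0665), or 1.48-fold, just short of the threshold. By the unadjusted limma p alone, with no fold threshold, 3 of the 7 genes passed (RNR3, SML1 and DUN1), beside 29.1% of all genes tested. The kinase gene and the gene of its substrate lay on opposite sides of 0 on every array, SML1 minus DUN1 being −1.43 to −0.83.

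RAD53, the kinase gene upstream of DUN1, had means of 0.64 in culture 1 and 0.28 in culture 2 and was above 0 on 6 of 6 arrays (mean 0.46, limma adjusted p = 0.106). MEC1, the kinase at the top of the cascade, had a mean of 0.06. Of the 18 checkpoint genes besides DUN1, 0 passed the criterion in limma, beside 10.5% of all genes tested. At an unadjusted p below 0.05 alone, RAD24 (0.32), the clamp loader subunit, and RAD53 were higher and the phosphatase subunit gene PSY2 (−0.34) was lower. Among all genes tested, 29.1% passed that cut in either direction. The median of the 18 was 0.08.

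RAD54 (YGL163C) read −0.03, 0.07 and 0.09 in culture 1 and −0.01, −0.07 and −0.16 in culture 2. Its values scattered around 0 and the cultures overlapped. The mean was −0.02 ± 0.12 (SE, n = 2; 95% interval −0.32 to 0.28; limma adjusted p = 0.932), 98.7% of the untreated level.

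Among 15 further genes known as damage-induced, HUG1 fell and 0 passed the criterion as higher in limma, beside 5.74% of all genes tested. Their median was −0.15. The highest mean was 0.17, that of the excision repair nuclease RAD2. At an unadjusted p below 0.05 alone, 0 were higher and 5 were lower, among them UBI4 (−0.45), which encodes ubiquitin, and the DNA ligase gene CDC9 (−0.52). Counted in either direction, those 5 of 15 stand beside 29.1% of all genes tested, a similar share. All 5 were lower, and the share of all genes that were lower at this cut was not worked out.

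In the repair pathways few genes passed, beside 10.5% of all genes tested. MUS81, the catalytic subunit of a nuclease that cuts branched DNA, rose with means of 0.91 and 0.44 (mean 0.68 ± 0.15, SE, n = 2; 1.60-fold; limma adjusted p = 0.067), whereas its partner MMS4 had a mean of −0.02. It was the only one called of 16 recombination genes. NEJ1, a factor of nonhomologous end joining, fell with means of −0.88 and −0.37 (mean −0.63 ± 0.16; 0.648 of the untreated level; limma adjusted p = 0.0797) and was the only one of 5. In culture 2, neither MUS81 nor NEJ1 reached 1.5-fold.

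None of the 11 nucleotide excision, 7 base excision, 8 mismatch and 9 postreplication repair genes passed the criterion in limma. At an unadjusted p below 0.05 alone, the excision repair nuclease RAD1 (−0.50) and SSL2 (−0.33) were lower. RAD26 (0.44), NTG1 (0.44), RAD18 (0.43) and APN1 (0.35) were higher. Of all genes tested, 29.1% passed this cut in either direction. The medians were −0.11 for nucleotide excision, 0.06 for mismatch and −0.03 for postreplication repair. All 7 base excision genes had a mean above 0, with a median of 0.18, and 6 of them were above 0 in both cultures.

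The electrons for the reductase come from thioredoxin and glutaredoxin, so genes of both were listed with enzymes of nucleotide metabolism under dNTP supply. Of these 12 genes 2 passed as higher, a thioredoxin and a glutaredoxin, beside 5.74% of all genes tested. Whether their rise bears on dNTP supply was not tested. TRX2, a thioredoxin, read 0.81, 0.78 and 0.95 in culture 1 and 0.64, 0.57 and 0.73 in culture 2. Every array was thus above 0, with culture 1 slightly higher. Its mean was 0.74 ± 0.12 (SE, n = 2; 1.67-fold; limma adjusted p = 0.039). The adjusted p of TRX2 was above 0.05 after centring (0.0942) and without array 1 or 3 of culture 1 or array 1 or 2 of culture 2 (0.0588 to 0.0672). GRX2, a glutaredoxin, had means of 0.87 and 0.37 (mean 0.62 ± 0.16; 1.54-fold; limma adjusted p = 0.0805), the second of which is under 1.5-fold, and it no longer met the criterion after quantile normalization (0.57). TRX1 (0.32), TRR1 (0.42), which encodes thioredoxin reductase, and GRX1 (0.42) were above 0 on 6 of 6 arrays without passing the criterion. DUT1, the dUTPase gene, was lower on 6 of 6 arrays (−0.38) and did not pass. The rest of the list did not pass either, with CDC21 at 0.14, YNK1 at 0.39, CDC8 at −0.16, DCD1 at −0.28, GUK1 at −0.11 and DFR1 at −0.07. In cultures 1 and 2 the sign differed for CDC21 (0.40 and −0.12), DCD1 (−0.73 and 0.16), GUK1 (−0.30 and 0.08) and DFR1 (−0.19 and 0.05). YNK1 had culture means of 0.75 and 0.02, and CDC8 of −0.16 in both. The median over all 12 genes, redox genes included, was 0.23.

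Of the 15 G1/S genes of MBF other than RNR1, 0 passed the criterion in limma, beside 10.5% of all genes tested. At an unadjusted p below 0.05 alone 0 were higher and 3 lower, beside 29.1% of all genes tested in either direction. Their median was 0.11 in culture 1 and −0.20 in culture 2. RNR1, at −0.22 and −0.39, lay below it in both.

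Over all 116 pathway genes besides the 7, every one of which had values in both cultures, 5 passed (MUS81, TRX2 and GRX2 higher, HUG1 and NEJ1 lower). That is 4.31%, beside 10.5% of all genes tested. With the adjusted p, HUG1 and TRX2 passed, each in 7 of the 12 tests run with other settings. For each gene, those 7 include the fits with arrays as replicates and with culture as a random block. These fits used single technical arrays rather than culture means. The median log2 ratio of the 116 was 0.01, and that of the 7 genes −0.11.

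**Figure D4:**
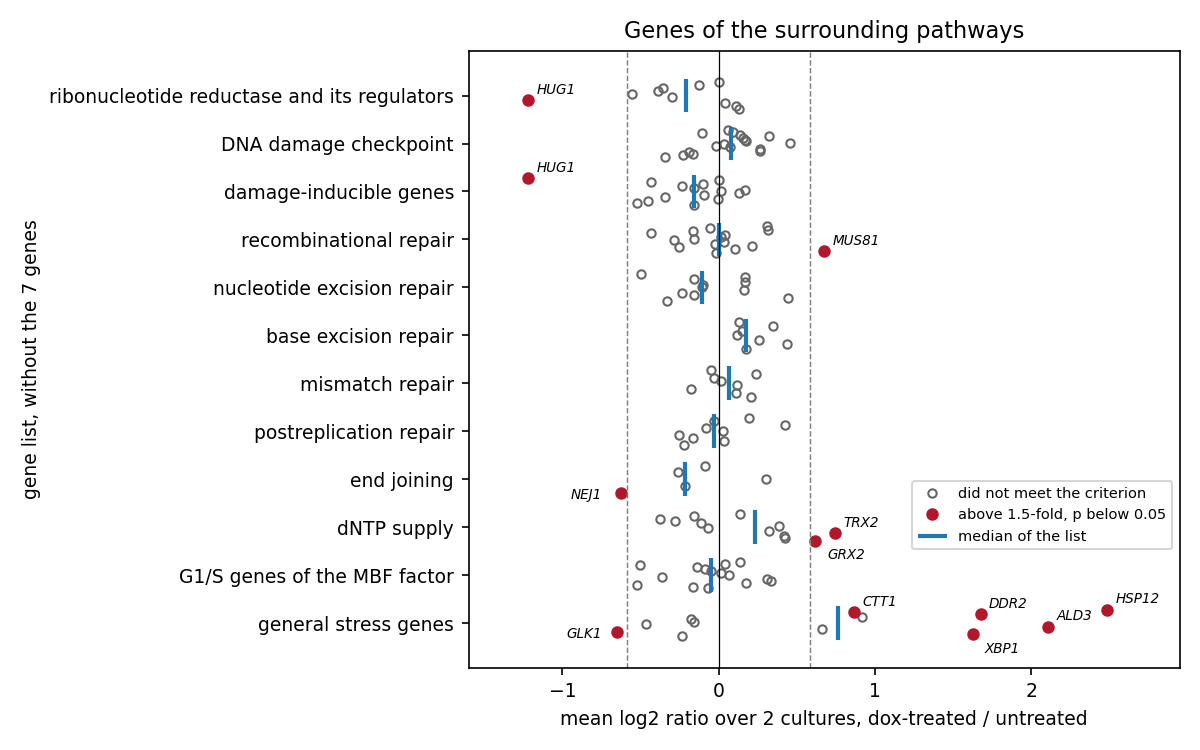
Mean log2 ratio over both cultures (horizontal axis) for each gene of 12 lists (vertical axis), without the 7 genes. Filled red points passed the criterion, open points did not, blue bars are list medians and dashed lines mark 1.5-fold. HUG1 is the lowest point at −1.22 and stands in 2 lists, and the general stress genes reach furthest to the right.

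The cultures differed from each other in the size of many ratios. Of 6241 genes compared over the technical arrays, 22.3% differed at an adjusted p below 0.05, 9.98% being higher in culture 1, and of the 7 genes 1 did, RNR3. Its log2 ratio was 0.82 ± 0.11 (SE) higher in culture 1 (95% interval 0.56 to 1.08; limma adjusted p = 0.00157). For RNR4 the difference was −0.20 (adjusted p = 0.14) and for DUN1 0.26 (adjusted p = 0.111) by limma. This comparison covers these cultures alone, and culture and isotope label cannot be told apart.

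Ratios spread more widely over genes in culture 1 (SD 0.54) than in culture 2 (SD 0.40). When the arrays were scaled to an equal spread, the RNR3 difference was 0.43 (limma adjusted p = 0.0981), and after quantile normalization it was 0.07 (adjusted p = 0.791). Of 12 general stress genes, 8 also differed between the cultures at a limma adjusted p below 0.05, beside 22.3% of all genes compared. They did not all rise. Of these 12, 5 (HSP12, CTT1, DDR2, ALD3 and XBP1) passed the criterion as higher and 1 (GLK1) as lower. Among all genes tested, 5.74% passed as higher and 4.74% as lower. By mean, 7 were above 0 and 5 below it, and 4 were below 0 in both cultures. Among the latter, GLK1 had means of −0.58 and −0.72 in cultures 1 and 2, and TPS2 had −0.73 and −0.19. Of the 12, 11 had a higher ratio in culture 1. The share of all genes with a higher ratio there was not worked out. The median of the 12 was 1.25 in culture 1 and −0.06 in culture 2. In culture 1 and culture 2, HSP12, which encodes a membrane-stabilizing stress protein, had means of 4.68 and 0.29, and DDR2 had 3.13 and 0.22. ALD3, an aldehyde dehydrogenase gene, had 3.04 and 1.18, XBP1, which encodes a transcriptional repressor, 2.19 and 1.06, and the catalase gene CTT1 1.02 and 0.71. For RNR3 the means were 1.89 and 1.07. The part of the stress genes in the rise of RNR3 and in its difference between cultures was not tested.

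By the root mean square difference of the log2 ratio over 6 arrays, among 6153 genes with 6 values, the genes most like RNR3 were FKS3 (0.124), GSC2 (0.183) and YJR079W (0.188). FKS3 and GSC2 belong to the family of glucan synthase genes, which serve the cell wall. Closest to DUN1 were ELM1 (0.0863), SPO12 (0.0877) and RCO1 (0.103), and closest to SML1 were SNN1 (0.0689), EFM6 (0.0694) and TKL1 (0.0882). RNR1 had YDL196W (0.105), PHM6 (0.113) and CMR1 (0.128) nearest to it. None of these was another gene of the 7. RNR2, RNR4 and RAD54, whose ratios lie where most genes lie, had nearer neighbours, at 0.0378 to 0.0555 for the closest 3 of each. They were CIS3, SER2 and BOL2 for RNR2, PAC10, HIS5 and RMR1 for RNR4, and HAA1, RUD3 and SKG1 for RAD54.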

How the data were processed

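Dox-treated and untreated RNA were hybridized together to 6 homemade oligonucleotide arrays. Per the study's methods, the authors used GeneSpring GX for LOWESS normalization within an array. The deposited table has 1 number for an ORF on an array, read here as a log2 ratio. Its base follows from an apparent floor at a ratio of 0.01, met by 10 values, and its direction was taken from the sample titles and HSC82. Further centring is unknown (array medians −0.03 to 0.02). Background correction and spot filters are not given in the sources used here, and intensities were not analysed, so precision rests on the number of arrays. No sample column was left unused (0).

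Gene symbols came from the R64 RefSeq table by ORF name, which matched 5840 of 6377 rows, and 537 kept the file's name. The mean of each culture's arrays was taken, and limma 3.58.1 in R 4.3.3 tested these 2 values per gene against 0 (two-sided) over the 6290 genes with values in both cultures, with no filter on low values. A gene was called above 1.5-fold with unadjusted p below 0.05, since the methods name no test, and Benjamini-Hochberg adjusted p-values are over all genes tested. The p-values measure the spread between 2 cultures, steadied by that of all genes. Cultures were compared with limma over 3 against 3 technical arrays, for genes with 2 or more values in each. The tests were tried on simulated data.

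Named were the 7 genes, the called genes of the pathway lists, the 3 genes nearest to each of the 7 over the arrays, and HSC82. Regulators and other list genes short of the criterion were named after their values were seen. The 7 genes and the lists were chosen with earlier results of these data known. Alternatives covered the adjusted p, a 2-fold and no fold threshold, arrays as replicates with and without culture as a random block, centring, scale and quantile normalization, genes with all values, and each array and culture left out. Probe and promoter sequences were not analysed here.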

Additional observations from a re-analysis of the deposited data

Results flagged for a closer look

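Of 12 genes compared between the cultures (the 7 genes and the 5 called pathway genes), 5 had log2 ratios that differed at an adjusted p below 0.05 by limma over 3 technical arrays against 3. RNR3 was higher in culture 1 by 0.82 (adjusted p = 0.00157), MUS81 by 0.47 (adjusted p = 0.00605) and GRX2 by 0.50 (adjusted p = 0.00704). The difference of culture 1 minus culture 2 was −0.66 for HUG1 (limma adjusted p = 0.00391) and −0.50 for NEJ1 (adjusted p = 0.00518), so that both were lower in culture 1. For HUG1 it was −0.38 (adjusted p = 0.112) after scale and −0.43 (adjusted p = 0.119) after quantile normalization. For RNR3 it was 0.43 (limma adjusted p = 0.0981) and 0.07 (adjusted p = 0.791) after these normalizations. In each of these 5 genes culture 1 had the larger ratio in either direction. Ratios also spread more widely over all genes in culture 1 (SD 0.54) than in culture 2 (SD 0.40). Isotope label and culture cannot be told apart, and 22.3% of all genes compared differed. In none of the 12 genes did a single array stand apart from the other 5 by Dixon's test at the 95% level. The test pooled the arrays of both cultures. In genes whose cultures differ, that difference widens the range, so a stray array could hardly be flagged.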

How the results depend on the processing

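RNR3 was called under all 17 alternatives (by fold alone where a culture was left out), with mean log2 ratios of 1.07 to 1.89. Its limma adjusted p was below 0.05 in only 8 of 12 tests (0.000191 to 0.0967). The lowest, 0.000191, took the 6 technical arrays as replicates, although only 2 cultures are independent. Next came 0.000436, from the limma fit on single arrays with culture as a random block. It was above 0.05 after centring (0.0967, which left 2 genes in all) and without array 1 or 3 of culture 1 or array 2 of culture 2. The number of the 7 genes called was 1 to 3 when an array or a culture was left out. DUN1 joined without array 1 of culture 1 (2 genes) or array 2 of culture 2 (2 genes), SML1 without array 3 of culture 1 (2 genes), and both in culture 1 alone, where fold was the only criterion (3 genes). With no fold threshold it was 3, beside 29.1% of all genes tested. RAD54, which was not called, ranged from −0.0818 to 0.0442 and was above 0 without array 3 of culture 2 and in culture 1 alone. Of the pathway genes, 2 passed with the adjusted p, 1 at 2-fold and 31 with no fold threshold. Those 31 are 26.7% of the pathway genes, beside 29.1% of all genes tested. With an array or a culture left out, 5 to 11 passed, the latter in culture 1 alone. Culture 2 alone gave 5, of which 2 were among the 5 called with both cultures. For a single culture these counts rest on fold alone, and the share of all genes at that setting was not worked out. Ratios spread more widely over genes in culture 1 (SD 0.54) than in culture 2 (SD 0.40). GRX2 was no longer called after quantile normalization (0.57). Scale and quantile normalization each left 0 of the 7 genes that differed between the cultures. The cause of these changes was not tested. Each ratio already pairs treated with untreated RNA of 1 array. No paired analysis was possible beyond this because all arrays belong to 1 group. The number of arrays, not signal over background, is the only measure of depth here.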
